A study of Homo sapiens with 9 samples.

Results

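The genes described here encode the unfolded protein response and the secretory machinery of the endoplasmic reticulum (ER). They were chosen by name, with earlier results of these data known. The list held 60 symbols for ER stress, ER folding and ER-to-Golgi transport, all 60 of which were rows of the deposited table of 28216 genes. By role they comprised 10 stress sensors and effectors, 3 CREB3L transcription factors, 12 chaperones and co-chaperones, 6 disulfide enzymes, 9 genes of ER-associated degradation, 8 genes of translocation and signal peptide removal, 5 subunits of the COPII coat and 7 cargo receptors or ER-Golgi recycling receptors.

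RNA was sequenced from 2 established prostate cancer cell lines in 3 groups of 3 libraries. PC3, an androgen-insensitive line derived from a bone metastasis, was grown in F12K medium with 10% fetal bovine serum and received no treatment. LNCaP (clone FCG), an androgen-responsive line derived from a lymph node metastasis, was first held in RPMI without phenol red that contained 10% charcoal-stripped serum, which is depleted of steroids, for 24 h. It was then given either 10 nM androgen or 0.01% ethanol as vehicle for 48 h. The sample labels name the androgen as dihydrotestosterone (DHT), whereas the main text of the study names the synthetic androgen R1881. All 9 libraries carried the genotype label WT. The lines also differed in medium and serum, so that line and culture cannot be told apart in any comparison with PC3, and each line stands for 1 line of its kind.

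Proteins destined for the cell surface or for secretion are threaded into the ER, folded with the help of chaperones and disulfide-forming enzymes, and carried to the Golgi in COPII-coated vesicles, while misfolded chains are returned to the cytosol for degradation. When folding capacity is exceeded, 3 sensors in the ER membrane respond: IRE1 (encoded by ERN1) splices the XBP1 transcript, PERK (EIF2AK3) slows translation and favours synthesis of ATF4, and ATF6 is cleaved to release a transcription factor. The luminal cells of the prostate are secretory, and androgen drives the synthesis of many of the proteins that they secrete. Splicing of XBP1, phosphorylation of PERK and cleavage of ATF6 are not visible in counts per gene.

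The libraries held between 17397706 and 25640325 reads counted on genes. Levels are given as CPM, which are read counts scaled to a library size of 1000000, and 3 reads stood for a level between 0.118 and 0.160 CPM. The cell lines carried their labelled markers. KLK3 and TMPRSS2 were high in LNCaP, VIM, CD44 and CAV1 were high in PC3, and EPCAM, KRT8 and KRT18 were present in every library. The summed CPM of VIM, CD44 and CAV1 in the LNCaP libraries was 0.910, 0.425 and 0.310% of its PC3 mean with androgen and 0.314, 0.0780 and 0.109% with vehicle. These values are set beside the genes below that were far higher in PC3. The replicates were separate samples per the labels, with no statement that they were separate cultures, so that p-values measure the spread between these samples.

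Together the 60 genes took 1.91, 1.82 and 1.88% of all counts in the 3 androgen libraries. They took 1.34, 1.40 and 1.35% in the vehicle libraries and 1.35, 1.30 and 1.49% in PC3. Every androgen library lay above the other 6 libraries, whereas PC3 and vehicle overlapped. Within PC3 the replicates were less alike: the median coefficient of variation over the listed genes with a mean above 3 CPM was 12.4% in PC3, 5.11% with androgen and 3.74% with vehicle, against 9.42, 5.13 and 4.60% over all genes above that level. Of the PC3 libraries, replicate 3 was the highest for 39 of the 60 genes and replicate 2 the lowest for 35. Replicate 1 was the highest androgen library for 42.

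**Figure D1:**
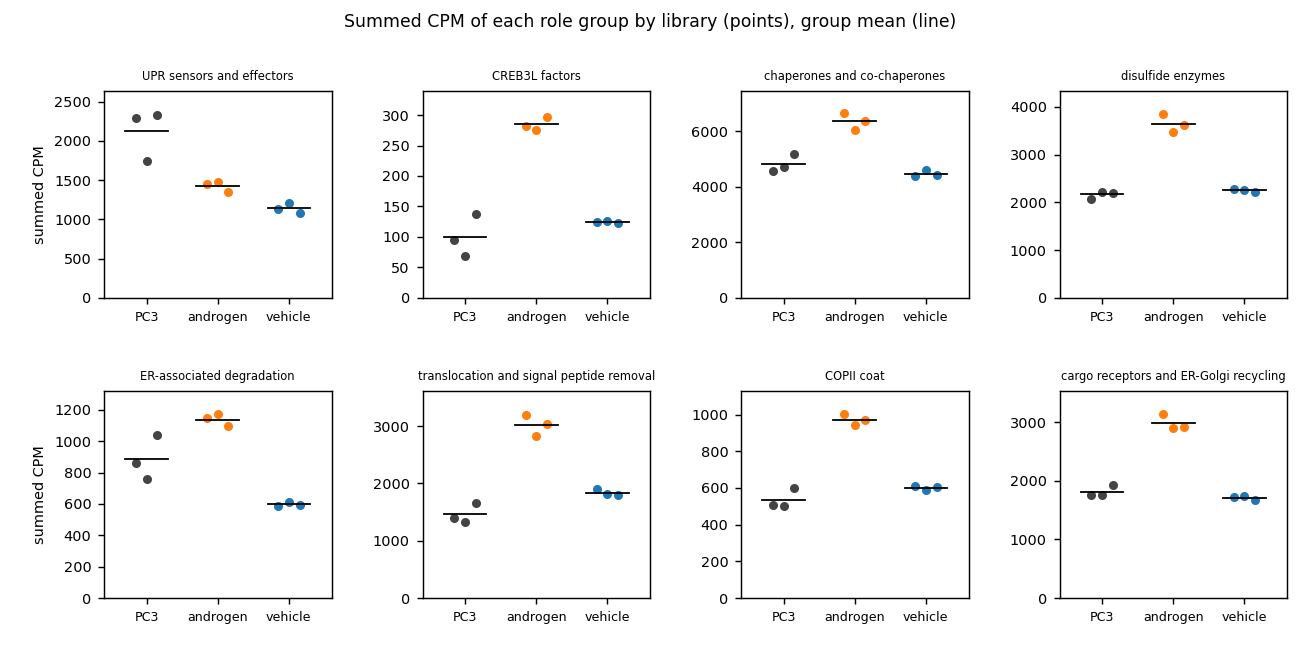
Summed CPM of the genes of each role (vertical axes, each starting at 0) in the 3 PC3, 3 androgen-treated LNCaP and 3 vehicle-treated LNCaP libraries (points), with a line at each group mean. Androgen-treated LNCaP libraries were the highest of the 9 in every panel except that of the sensors and effectors, where PC3 was highest.

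The effect of androgen on these genes in LNCaP cells was examined first. Most of them rose. Of the 58 genes expressed highly enough to be tested (more than 3 CPM in at least 3 of the 6 libraries), 54 were higher with androgen than with vehicle at an adjusted p under 0.05 (edgeR's quasi-likelihood test with Benjamini-Hochberg adjustment over all 11697 genes tested), and the background share of all tested genes that rose was 37.1%. A single gene, CHAC1, fell, where 37.8% of all genes fell. The differences were moderate in size. In all, 15 rose at least 2-fold, where 6.54% of all genes did so, and 0 fell by as much, where 7.49% of all genes did. That count of 0 was the same at an unadjusted p under 0.05 and with DESeq2. The median log2 fold change was 0.68 over the 58 genes and -0.01 over all genes tested. Because the list was chosen with earlier results known, its distance from the background describes the list and is not an independent test. ATF6, ATF4 and DDIT3 did not pass the test, and CREB3L1 and EDEM2 were too low to be tested.

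**Figure D2:**
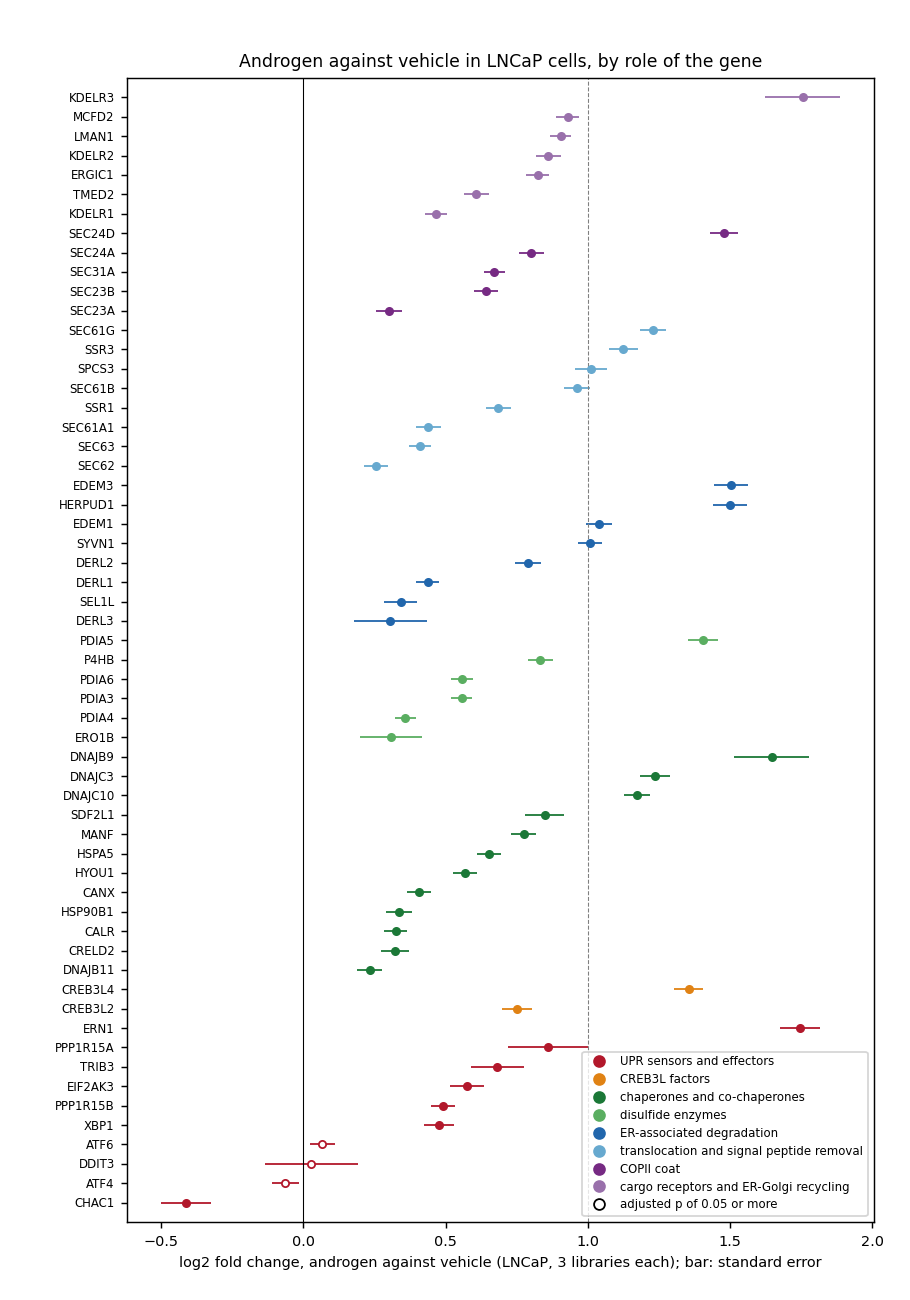
Log2 fold change of each tested gene with androgen against vehicle in LNCaP (horizontal axis, bars for the standard error, 3 libraries each), grouped and coloured by role. Filled points passed the adjusted p of 0.05, open points did not, and the dashed line marks a 2-fold rise; 54 of 58 points are filled and lie to the right of 0.

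**Figure D3:**
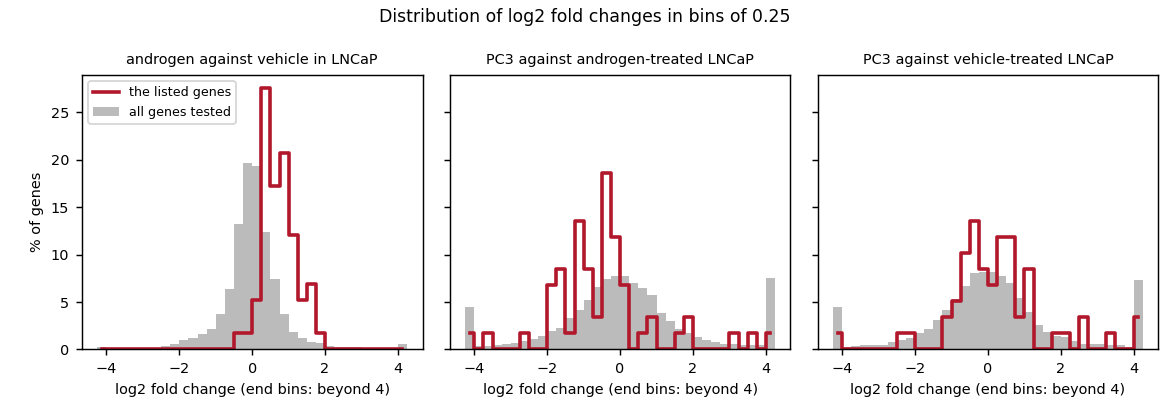
Distribution of log2 fold changes in bins of 0.25 for the listed genes (red outline) and for all genes tested (grey), as a percent of genes, in the 3 comparisons; the end bins hold values beyond 4. With androgen the listed genes lie to the right of the bulk of genes, with medians of 0.68 and -0.01.

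Among the sensors, ERN1 responded most. Its level was 83.7, 93.9 and 86.8 CPM in the androgen libraries and 23.4, 27.2 and 26.6 CPM in the vehicle libraries. All 3 androgen libraries were well above all vehicle libraries, a 3.36-fold difference (log2 1.75 ± 0.07 SE, adjusted p = 1.48e-10). XBP1, the transcription factor made active by IRE1, was at 357, 369 and 342 CPM with androgen and 241, 271 and 239 CPM with vehicle, a rise of 1.39-fold (adjusted p = 2.88e-06). EIF2AK3 stood at 46.5, 45.3 and 48.9 CPM with androgen against 33.5, 29.6 and 29.5 CPM with vehicle, and was 1.49-fold higher (adjusted p = 1.63e-06). For both genes the groups did not overlap.

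The remaining sensor, ATF6, and the factors ATF4 and DDIT3 of the PERK arm did not pass the test. ATF6 was at 80.8, 83.4 and 81.0 CPM with androgen and 74.8, 76.8 and 77.9 CPM with vehicle, a log2 difference of 0.07 ± 0.04 SE that did not pass the test (adjusted p = 0.189), although the groups did not overlap. ATF4, which induces genes of amino acid supply and stress, was at 499, 505 and 446 CPM with androgen and 500, 511 and 474 CPM with vehicle, with overlapping groups (log2 -0.06 ± 0.05 SE, adjusted p = 0.242). DDIT3, which encodes the pro-apoptotic factor CHOP, stood at 24.4, 34.6 and 21.0 CPM against 22.5, 31.1 and 23.3 CPM. In both groups replicate 2 was the highest, and the groups overlapped (log2 0.03 ± 0.16 SE, adjusted p = 0.883).

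Genes known as targets of ATF4 or CHOP moved in different directions. TRIB3, a pseudokinase induced by both factors, rose from 104, 119 and 91.3 CPM with vehicle to 191, 176 and 148 CPM with androgen, by 1.60-fold (adjusted p = 1.89e-05). PPP1R15A, the stress-induced subunit of the phosphatase that restores translation, was low, at 8.74, 8.04 and 7.80 CPM with androgen and 4.29, 5.39 and 3.62 CPM with vehicle, and rose 1.82-fold (adjusted p = 9.31e-05). Its constitutive counterpart PPP1R15B rose 1.41-fold (adjusted p = 2.02e-07). CHAC1, a glutathione-degrading enzyme induced by ATF4, was at 22.8, 23.6 and 20.4 CPM with androgen and 28.0, 32.6 and 26.4 CPM with vehicle. Every androgen library was below every vehicle library (log2 -0.41 ± 0.09 SE, adjusted p = 0.000792). This call was lost when all 9 libraries shared 1 fit (adjusted p = 0.142). PPP1R15A was far higher in PC3: the PC3 marker share given above, applied to its PC3 mean, amounts to between 0.643 and 1.89 CPM in the androgen libraries and between 0.162 and 0.651 CPM in the vehicle libraries. The part of that share in the rise of PPP1R15A was not tested.

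**Figure D4:**
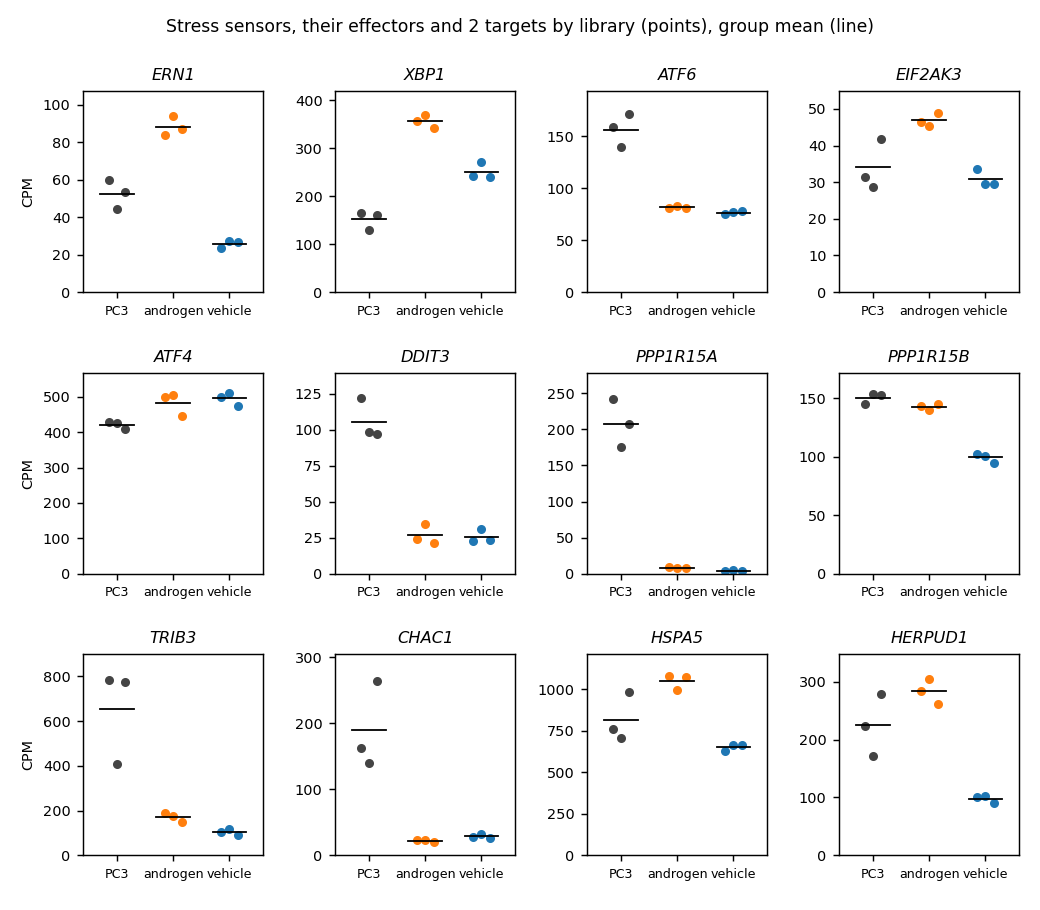
CPM of the 10 sensors and effectors and of HSPA5 and HERPUD1 in each library (points; vertical axes start at 0 and differ between genes), with a line at each group mean. ERN1, HSPA5 and HERPUD1 are lowest with vehicle and highest with androgen by their means, whereas DDIT3, PPP1R15A, TRIB3 and CHAC1 are highest in PC3.

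The CREB3L genes encode membrane-bound transcription factors that are released by cleavage in the Golgi, as ATF6 is, and act on secretory genes. CREB3L4, which is known for its expression in prostate epithelium, rose from 78.0, 76.5 and 79.9 CPM with vehicle to 197, 198 and 217 CPM with androgen. The 2 groups were far apart relative to their spread (2.56-fold, adjusted p = 6.46e-11). CREB3L2 rose 1.68-fold (adjusted p = 3.17e-08). CREB3L1 was counted in 38, 28 and 13 reads with androgen and in 3, 1 and 1 reads with vehicle. The ratio of the summed reads, scaled to library size, was 14.7 with a 95% exact interval of 6.06 to 46.7 that covers counting error only. No test was made at this level.

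All 12 chaperones and co-chaperones passed the test and were higher with androgen, by a log2 fold change between 0.23 (DNAJB11) and 1.65 (DNAJB9). Of all genes tested, 37.1% were higher and 6.54% rose at least 2-fold. HSPA5, which encodes BiP, the HSP70 of the ER and the most used marker of the response, stood at 1079, 993 and 1072 CPM with androgen and 628, 663 and 667 CPM with vehicle. Its groups did not overlap and the rise was 1.57-fold (log2 0.65 ± 0.04 SE, adjusted p = 1.95e-08). Smaller folds were measured for HSP90B1 (GRP94; 1.26-fold), calreticulin (CALR; 1.25-fold) and calnexin (CANX; 1.33-fold). The 3 chaperones that rose at least 2-fold were all co-chaperones of the DNAJ family, which deliver substrates to BiP. DNAJB9 was at 63.1, 52.7 and 45.4 CPM with androgen against 20.5, 17.0 and 13.1 CPM with vehicle (3.13-fold, adjusted p = 1.09e-07). In both groups replicate 1 was highest and replicate 3 lowest. DNAJC3 was at 171, 150 and 171 CPM against 67.7, 66.2 and 70.4 CPM (2.36-fold, adjusted p = 2.83e-10). DNAJC10, a disulfide reductase with a J domain, was at 329, 286 and 301 CPM against 134, 134 and 130 CPM (2.26-fold, adjusted p = 9.66e-11). For all of them the androgen libraries lay above the vehicle libraries. The others were HYOU1 (1.48-fold), SDF2L1 (1.80-fold), MANF (1.71-fold) and CRELD2 (1.25-fold).

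Disulfide enzymes were also higher with androgen, 6 of 6 at the adjusted p (37.1% of all genes tested). PDIA5 rose most, from 35.2, 35.0 and 31.7 CPM to 95.5, 93.3 and 86.6 CPM (2.65-fold, adjusted p = 7.73e-11), with no overlap between groups. P4HB, the founding protein disulfide isomerase, rose 1.78-fold, PDIA6 and PDIA3 both rose 1.47-fold and PDIA4 rose 1.28-fold. ERO1B, an oxidase that recharges these enzymes, was at 30.4, 31.0 and 26.3 CPM with androgen and 19.1, 27.2 and 23.1 CPM with vehicle. The lowest androgen library of ERO1B was below the highest vehicle library, and its rise of 1.24-fold passed the test narrowly (adjusted p = 0.0223). Without vehicle replicate 1 the adjusted p was 0.144, without androgen replicate 2 it was 0.0678, and without vehicle replicate 3 it was 0.0714. It was 0.0604 when all 9 libraries shared 1 fit, and 0.00315 with the replicate number as a block.

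ER-associated degradation held the most genes that rose at least 2-fold: 4 of its 8 tested members, where 6.54% of all genes tested did. HERPUD1, which organises the retrotranslocation complex, was at 284, 305 and 261 CPM with androgen and 102, 102 and 91.0 CPM with vehicle (2.83-fold, adjusted p = 1.31e-10). EDEM3, a mannosidase that marks glycoproteins for disposal, was at 145, 168 and 150 CPM against 54.1, 53.4 and 52.5 CPM (2.84-fold, adjusted p = 1.41e-10). For both, the lowest androgen library was more than 2 times the highest vehicle library. EDEM1, of the same family, was at 147, 134 and 144 CPM against 68.0, 69.6 and 65.0 CPM (2.05-fold, adjusted p = 3.35e-10). SYVN1, the ubiquitin ligase HRD1, was at 97.0, 96.8 and 93.8 CPM against 47.4, 45.1 and 47.4 CPM (2.01-fold, adjusted p = 2.11e-10). Neither gene overlapped between groups. SEL1L, the partner of HRD1, rose 1.27-fold, and DERL1 and DERL2, of the derlin family of retrotranslocation proteins, rose 1.35-fold and 1.73-fold.

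The other derlin and EDEM2 were too low for firm values. DERL3 was at 5.96, 6.08 and 6.41 CPM with androgen and 5.28, 4.11 and 5.21 CPM with vehicle (1.24-fold, adjusted p = 0.045). Its adjusted p was 0.12 with DESeq2, and it rose above 0.05 without any one of 5 of the 6 libraries, between 0.0583 and 0.21. EDEM2 was counted in 43, 40 and 22 reads with androgen and in 15, 14 and 21 reads with vehicle. The deposited table also lists a readthrough gene that spans EDEM2, with between 7 and 26 reads per library, so that reads shared by both could be left uncounted and the level of EDEM2 is uncertain.

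All 8 genes of translocation and signal peptide removal rose with androgen (37.1% of all genes tested). SEC61G, the small subunit of the protein-conducting channel, was at 211, 211 and 201 CPM with androgen and 91.2, 88.5 and 80.8 CPM with vehicle (2.35-fold, adjusted p = 7.48e-11). SEC61B, another subunit, was at 289, 255 and 280 CPM against 144, 135 and 135 CPM (1.95-fold, adjusted p = 6.96e-10). The large subunit SEC61A1, which forms the pore, rose 1.36-fold. Of the translocon-associated proteins, SSR3 was at 581, 505 and 583 CPM against 259, 247 and 243 CPM (2.18-fold, adjusted p = 4.49e-10), and SSR1 rose 1.61-fold. SPCS3, a subunit of the signal peptidase, was at 227, 194 and 187 CPM against 102, 98.8 and 95.0 CPM (2.01-fold, adjusted p = 3.76e-09). No androgen library of these genes overlapped a vehicle library. SEC62 and SEC63, which serve post-translational import, rose 1.19-fold and 1.33-fold.

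Transcripts of genes for export from the ER rose as well. The inner COPII coat selects cargo through SEC24 proteins, and SEC24D stood at 105, 95.6 and 101 CPM with androgen and 35.5, 33.2 and 36.9 CPM with vehicle (2.79-fold, adjusted p = 2.79e-11). SEC24A rose 1.74-fold, the outer coat gene SEC31A 1.59-fold, and the paralogs SEC23B and SEC23A 1.56-fold and 1.23-fold. KDEL receptors return chaperones that escape to the Golgi. KDELR3 had the largest log2 fold change of all 58 genes, with 10.5, 9.32 and 8.74 CPM with androgen and 2.51, 3.09 and 2.68 CPM with vehicle (3.38-fold, log2 1.76 ± 0.13 SE, adjusted p = 5.46e-08). Its androgen and vehicle libraries were well separated. KDELR3 met the filter of more than 3 CPM in 3 libraries only through its androgen group, where it was high. KDELR2 and KDELR1 rose 1.82-fold and 1.38-fold. The cargo receptor LMAN1 and its partner MCFD2, which carry coagulation factors and other glycoproteins, rose 1.87-fold and 1.90-fold. ERGIC1, a protein of the ER-Golgi intermediate compartment, was at 981, 946 and 939 CPM against 516, 554 and 516 CPM (1.77-fold, adjusted p = 1.12e-09), and TMED2, of the p24 cargo receptors, rose 1.52-fold.

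Promoter windows were read because many of these genes are textbook targets of the factors above. RefSeq windows on GRCh38.p14, from 250 bases before to 50 bases after each start, matched 54 of the 60 genes in 74 windows. Both strands were searched. The ER stress response element, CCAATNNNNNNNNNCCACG, to which ATF6 binds together with NF-Y, was in 27 of all 35116 windows (0.0769%) and in 10 of the 74 windows of the listed genes (13.5%), from 8 genes: CALR, CANX, CRELD2, ERO1B, HSP90B1, HSPA5, PDIA6 and XBP1. The second element, ATTGGNCCACG, was in 19 of all windows (0.0541%) and in those of HERPUD1, HYOU1 and SDF2L1. Stretches of 15 bases on both sides of the match are shown for 6 of these 11 genes, as examples of both elements on either strand, with the match in capitals. A match that begins with CGTGG lies on the opposite strand.

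HSPA5 (chr9:125241376-125241424, minus strand): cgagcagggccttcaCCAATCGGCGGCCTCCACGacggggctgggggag
XBP1 (chr22:28800588-28800636, minus strand): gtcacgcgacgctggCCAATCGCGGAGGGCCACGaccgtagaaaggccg
CALR (chr19:12938369-12938417, plus strand): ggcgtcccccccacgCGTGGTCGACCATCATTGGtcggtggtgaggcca
CRELD2 (chr22:49918539-49918587, plus strand): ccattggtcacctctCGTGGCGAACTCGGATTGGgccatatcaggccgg
HERPUD1 (chr16:56932010-56932050, plus strand): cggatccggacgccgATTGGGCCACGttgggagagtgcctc
SDF2L1 (chr22:21642099-21642139, plus strand): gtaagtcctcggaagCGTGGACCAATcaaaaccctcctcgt

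The 11 genes with either element all rose with androgen, with a median log2 fold change of 0.48 and a range from 0.31 to 1.50. Only HERPUD1 among them rose at least 2-fold. The 41 tested genes with a window and neither element had a median of 0.77, and 13 of them rose at least 2-fold. The difference between these sets was not tested. Of all genes tested, 37.1% were higher with androgen and 6.54% rose at least 2-fold, shares that apply to every motif here. A motif of 8 bases, TGACGTGG, the core of the UPR element bound by XBP1, was in 0.729% of all windows and in those of 7 listed genes, DNAJC10, HYOU1, KDELR3, SEC23A, SEC24A, SEC62 and SSR3, 3 of which rose at least 2-fold. TGATGCAA, a core of the sites bound by ATF4 with CHOP or other partners, was in 0.866% of all windows and in those of CHAC1, HERPUD1 and PPP1R15B. The palindromic androgen response element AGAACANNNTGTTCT was in 1 of all 35116 windows and in none of the listed genes, which says only that these letters are not in these windows. Matches of the genes that rose at least 2-fold, and that of CHAC1, read as follows.

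KDELR3 (chr22:38468035-38468072, plus strand): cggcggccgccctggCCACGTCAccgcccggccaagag
DNAJC10 (chr2:182716117-182716154, plus strand): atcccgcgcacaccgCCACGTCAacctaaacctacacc
SSR3 (chr3:156554144-156554181, minus strand): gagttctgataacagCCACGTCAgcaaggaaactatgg
HERPUD1 (chr16:56931951-56931988, plus strand): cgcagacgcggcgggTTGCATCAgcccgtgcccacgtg
CHAC1 (chr15:40953247-40953284, plus strand): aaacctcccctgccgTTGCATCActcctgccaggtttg

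In all 5 the capitals are the motif on the opposite strand.

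A further 155 genes of the same pathways, listed by function but with earlier results of these data known, were examined in the same fit. Of 149 tested, 115 rose with androgen (37.1% of all genes tested) and 18 fell (37.8%), and 18 rose (6.54%) and 2 fell (7.49%) at least 2-fold. The median log2 fold change was 0.44, against -0.01 over all genes. Transport between ER and Golgi had the largest share, with 45 of 48 higher and 2 lower, among them MIA3 (log2 1.19), SAR1B (1.16) and COPG1 (1.14). Translocation and N-glycosylation had 28 of 32 higher and 3 lower, among them SEC11C (1.88), SRP19 (1.33) and TUSC3 (0.83). Other degradation genes had 14 of 22 higher and 3 lower, with MAN1A1 at -2.43, ERLEC1 at 1.50 and UBE2J1 at 1.27. Other folding enzymes had 16 of 27 higher and 6 lower, with PPIC at 1.97, ERO1A at 1.87 and FKBP7 at -1.37. PPIC met the CPM filter only through its androgen libraries, and FKBP7 and MAN1A1 only through their vehicle libraries. Other regulators and targets of the response had 12 of 20 higher and 4 lower, with VLDLR at 1.92, ATF3 at 1.71 and TNFRSF10B at 1.56. The 4 lower were SESN2 (-0.57), ATF5 (-0.50), STC2 (-0.49) and EIF2AK2 (-0.20).

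Next, PC3 cells were compared with LNCaP cells in each state. The comparisons share the PC3 libraries, and each shares its LNCaP libraries with the androgen comparison. The values are given side by side. Against androgen-treated LNCaP, 10 of 59 tested genes were higher in PC3 (42.9% of all 12541 genes) and 39 were lower (41.1%), of which 6 were higher (24.0%) and 21 lower (22.1%) by at least 2-fold. The median log2 difference was -0.47, against 0.04 over all genes. Against vehicle-treated LNCaP, 26 of 59 were higher in PC3 (42.6% of all 12686 genes) and 21 lower (40.8%), of which 12 were higher (22.2%) and 5 lower (21.0%) by at least 2-fold. Here the median was 0.17, against 0.03 over all genes. Thus most listed genes were lower in PC3 than in LNCaP with androgen, while against LNCaP without androgen the share that was higher lay near the background and the share lower by at least 2-fold (8.47%) lay below it.

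**Figure D5:**
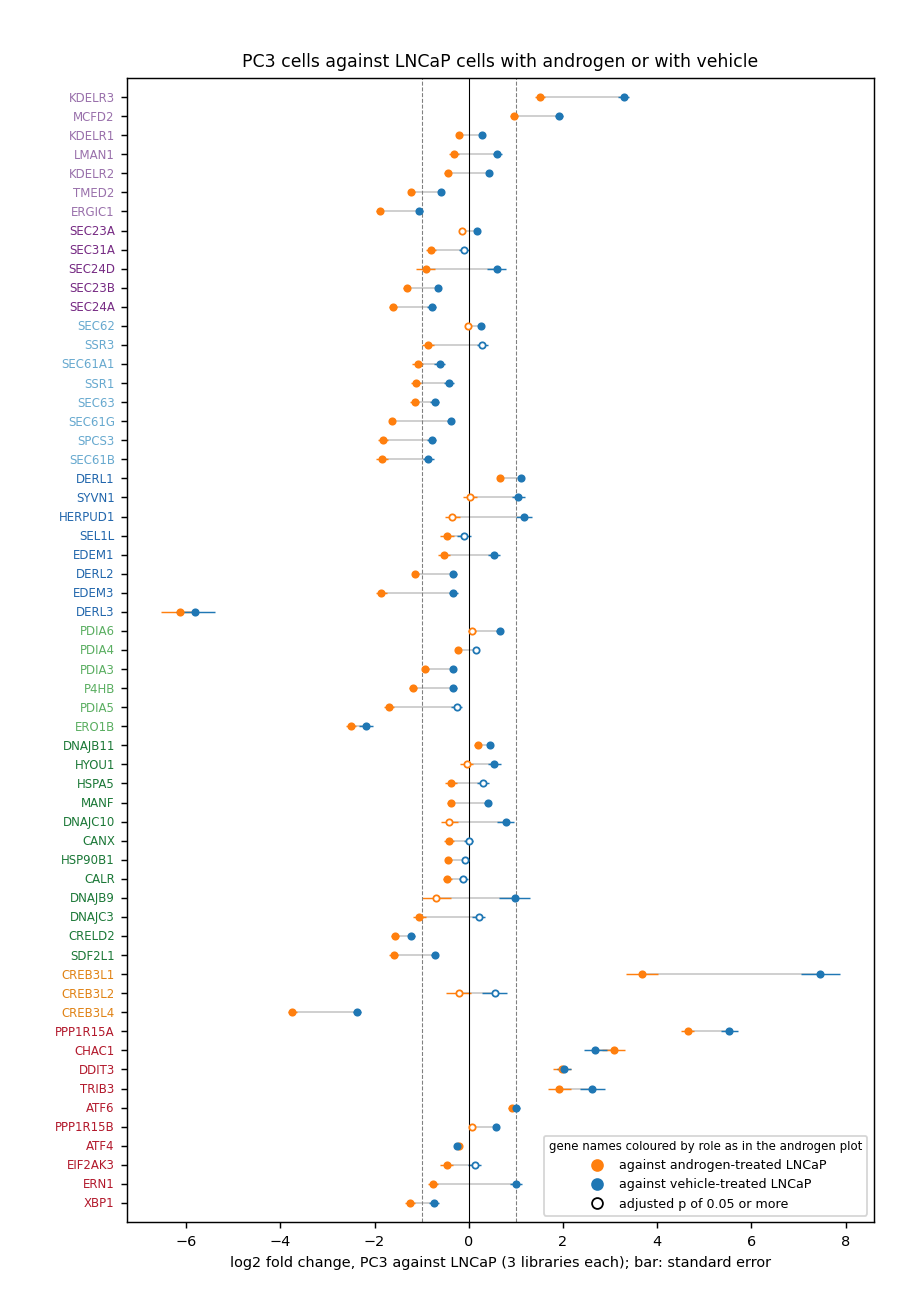
Log2 fold change of each tested gene in PC3 against androgen-treated LNCaP (orange) and against vehicle-treated LNCaP (blue), with bars for the standard error and 3 libraries per group. Open points did not pass the adjusted p of 0.05, dashed lines mark 2-fold, and gene names are coloured by role; PPP1R15A, CHAC1, DDIT3, TRIB3 and KDELR3 lie to the right of 1 in both comparisons, and DERL3, CREB3L4 and ERO1B to the left of -1 in both.

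PPP1R15A, CHAC1, TRIB3 and DDIT3, which are induced through the PERK arm, were all higher in PC3 than in either LNCaP state. PPP1R15A stood at 241, 175 and 207 CPM in PC3, against at most 8.74 CPM in any LNCaP library, and was 25.1-fold higher than with androgen (log2 4.65 ± 0.14 SE, adjusted p = 5.5e-08) and 46.2-fold higher than with vehicle (log2 5.53 ± 0.18 SE, adjusted p = 8.28e-08). CHAC1 was at 163, 141 and 265 CPM in PC3, 8.45-fold higher than with androgen and 6.43-fold higher than with vehicle (adjusted p = 7.2e-06 and 1.88e-05). PC3 replicate 3 held the highest CHAC1 level and the other PC3 libraries were still more than 4 times every LNCaP library. TRIB3 was at 782, 408 and 776 CPM, with replicate 2 far below the other PC3 libraries but above all LNCaP libraries. It was 3.79-fold higher than with androgen (adjusted p = 0.000145) and 6.17-fold higher than with vehicle (adjusted p = 3e-05). DDIT3 was at 122, 98.1 and 96.7 CPM, 3.92-fold and 4.05-fold higher (adjusted p = 2.2e-05 and 5.9e-06), with no overlap between lines.

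ATF4 itself was not higher. At 429, 427 and 409 CPM it was lower in PC3 than with androgen (log2 -0.21, adjusted p = 0.0251) or vehicle (log2 -0.25, adjusted p = 0.00513). The first of these calls was lost without any single PC3 library (adjusted p between 0.276 and 0.313) and with the replicate number as a block (0.0526), and the second without PC3 replicate 1 (0.0597). In the ATF4 locus 6.62% of the stretches of 74 bases, the read length, also occur elsewhere in the genome. DDIT3 overlaps MARS1 on the other strand, and 9.08% of reads in DDIT3 were on that strand, where MARS1 is read. The deposited values equal the forward-strand counts.

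Other genes of the response had no common direction. Of 20 further regulators and targets tested, 10 were higher (42.9% of all genes) and 10 lower (41.1%) in PC3 than with androgen. Against vehicle 9 were higher (42.6% of all genes) and 5 lower (40.8%). Several that are linked to ATF4 or CHOP, named after their values were seen, were lower in PC3 than with androgen: VLDLR (log2 -3.70), ATF3 (-1.72), TNFRSF10B (-1.72), DDIT4 (-1.71) and NUPR1 (-1.62). Against vehicle VLDLR (-1.76), DDIT4 (-1.67) and NUPR1 (-0.58) were again lower, whereas ATF3 (0.01) and TNFRSF10B (-0.14) did not pass the test. STC2 (2.22 and 1.75) and CEBPB (2.01 in both) were higher. Of all 149 further pathway genes tested, 50 were higher (42.9% of all genes) and 79 lower (41.1%) than with androgen. Against vehicle 75 were higher (42.6% of all genes) and 50 lower (40.8%).

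The other arms differed by gene. ATF6 was at 159, 139 and 171 CPM in PC3, 1.90-fold higher than with androgen (adjusted p = 1.87e-05) and 2.01-fold higher than with vehicle (adjusted p = 1.23e-05). XBP1 was lower, at 165, 129 and 162 CPM, by 2.37-fold against androgen (log2 -1.24, adjusted p = 1.01e-05) and by 1.68-fold against vehicle (log2 -0.75, adjusted p = 0.000327). For both genes no PC3 library overlapped a LNCaP library. ERN1 lay between the LNCaP states, at 59.7, 44.2 and 53.4 CPM, below androgen (log2 -0.76, adjusted p = 0.000362) and above vehicle (log2 1.01, adjusted p = 0.000128), again without overlap. EIF2AK3 was at 31.5, 28.8 and 41.9 CPM, below androgen (log2 -0.47, adjusted p = 0.0138) and overlapping vehicle (log2 0.12, adjusted p = 0.453). The first call was lost without PC3 replicate 1 (0.159) or 2 (0.133), and the second difference passed without PC3 replicate 2 (0.048).

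HSPA5 also lay between the LNCaP states. Its PC3 libraries held 760, 708 and 985 CPM, below all androgen libraries (log2 -0.37, adjusted p = 0.0282) and above all vehicle libraries (log2 0.30, adjusted p = 0.0557). The call against androgen was lost without PC3 replicate 1 (0.297) or 2 (0.298), and that against vehicle passed under 9 of the alternatives, DESeq2 among them (0.00501 to 0.0471). HERPUD1, at 223, 172 and 278 CPM, overlapped androgen (log2 -0.35, adjusted p = 0.0806, or 0.00589 without PC3 replicate 3) and was 2.25-fold higher than with vehicle (adjusted p = 0.000263). SYVN1, at 89.9, 82.5 and 122 CPM, likewise overlapped androgen (log2 0.03, adjusted p = 0.871) and was 2.08-fold higher than with vehicle (adjusted p = 0.000235). DERL1, at between 203 and 210 CPM, was higher than in either state, by 1.57-fold and 2.16-fold.

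The CREB3L factors split between the lines. CREB3L4 was at 14.8, 14.2 and 16.9 CPM in PC3, lower by 13.4-fold than with androgen (log2 -3.75, adjusted p = 2.61e-08) and by 5.19-fold than with vehicle (log2 -2.37, adjusted p = 1.2e-07). CREB3L1 was the reverse, at 16.8, 11.9 and 20.5 CPM in PC3 and 1.76, 1.37 and 0.646 CPM with androgen, and was 12.8-fold higher in PC3 (adjusted p = 1.7e-05). In both comparisons CREB3L1 met the filter of more than 3 CPM only through its PC3 libraries, where it was high. Against vehicle, with 5 reads in all, the ratio of summed reads was 193 with a 95% exact interval of 82.4 to 595. The PC3 marker share applied to the PC3 mean of CREB3L1 amounts to 0.149, 0.0698 and 0.0508 CPM in the androgen libraries. That is between 5.08 and 8.50% of the level measured in each. In the vehicle libraries the share amounts to 0.0515, 0.0128 and 0.0179 CPM, between 24.0 and 36.0% of the level measured in each. CREB3L2 was at 63.9, 43.3 and 99.5 CPM in PC3, and this spread covered both LNCaP states (adjusted p = 0.457 and 0.0872).

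Among the folding and degradation genes of the 60, DERL3 and ERO1B were the lowest in PC3 relative to LNCaP. DERL3 was counted in 2, 4 and 0 reads in PC3, against between 77 and 129 reads in every LNCaP library. It met the CPM filter only through its LNCaP libraries. The ratio of summed reads was 74.5-fold for androgen over PC3 (95% exact interval 33.9 to 204) and 59.1-fold for vehicle over PC3 (26.8 to 162). ERO1B was at 4.98, 5.53 and 5.08 CPM in PC3, lower by 5.67-fold against androgen (adjusted p = 2.89e-07) and by 4.52-fold against vehicle (adjusted p = 3.91e-06). CRELD2, at 26.0, 28.2 and 24.0 CPM, was lower by 2.95-fold and 2.33-fold, and EDEM3, at 42.3, 37.9 and 48.8 CPM, was lower by 3.62-fold against androgen and 1.26-fold against vehicle (adjusted p = 0.0142). The last of these calls was lost without PC3 replicate 1 (0.143) or 2 (0.14).

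Co-chaperones of the DNAJ family differed from each other. DNAJB11, at 129, 127.7 and 143 CPM, was higher in PC3 than with androgen (log2 0.19, adjusted p = 0.0352) and than with vehicle (log2 0.44, adjusted p = 0.000359). DNAJB9 was at 35.6, 18.4 and 46.7 CPM in PC3, an uneven group that overlapped both LNCaP states (log2 -0.69, adjusted p = 0.0649, and log2 0.98, adjusted p = 0.0237). The first difference passed under 7 of the alternatives, DESeq2 (0.0239) among them, with 0.00653 without PC3 replicate 3. The second call was lost without PC3 replicate 1 (0.0524), vehicle replicate 2 (0.0896) or vehicle replicate 3 (0.126). DNAJC3 was at 73.8, 67.4 and 97.8 CPM, 2.07-fold lower than with androgen (adjusted p = 0.000176) and overlapping vehicle (adjusted p = 0.188, or 0.0136 without PC3 replicate 2). DNAJC10 was at 208, 183 and 301 CPM, overlapping androgen (log2 -0.41, adjusted p = 0.0568) and 1.72-fold higher than with vehicle (adjusted p = 0.0033). The difference from androgen also passed under 7 of the alternatives, DESeq2 (0.0292) among them, with 0.000114 without PC3 replicate 3. EDEM1, at 91.0, 85.7 and 121 CPM, was below androgen (log2 -0.52, adjusted p = 0.00612) and above vehicle (log2 0.54, adjusted p = 0.00561), with the first call lost without PC3 replicate 1 (0.0903) or 2 (0.0588) and the second without vehicle replicate 3 (0.0576). PDIA5, at 26.0, 26.9 and 33.4 CPM, was 3.22-fold lower than with androgen (adjusted p = 2.03e-06) and overlapped vehicle (log2 -0.26, adjusted p = 0.0617), where the difference passed under 3 of the alternatives (0.00338 to 0.0305).

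Translocation genes were mostly lower in PC3. Of the 8 translocation genes, 7 were lower than with androgen (41.1% of all genes tested), 6 of them by at least 2-fold (22.1%). Against vehicle 6 were lower (40.8% of all genes tested), and 0 were lower by at least 2-fold (21.0%). SEC61B, at 74.6, 66.6 and 90.8 CPM, was lower by 3.58-fold and 1.81-fold (adjusted p = 2.38e-06 and 0.000175). SPCS3, at 55.1, 52.4 and 66.1 CPM, was lower by 3.53-fold and 1.73-fold (adjusted p = 1.8e-06 and 0.000108). SEC61G, at 66.7, 64.4 and 72.3 CPM, was lower by 3.09-fold and 1.30-fold (adjusted p = 2.32e-07 and 0.00176). SSR3, at 277, 278 and 371 CPM, was below androgen (log2 -0.86, adjusted p = 0.00037) and above every vehicle library without passing the test (log2 0.28, adjusted p = 0.0558). The latter difference passed under 6 of the alternatives (0.00227 to 0.0499). SEC62 was lower in neither comparison. At 223, 220.3 and 218 CPM it overlapped androgen (log2 -0.02, adjusted p = 0.774) and was higher than with vehicle (log2 0.26, adjusted p = 0.00284).

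Of the 7 cargo and recycling receptors, 2 were higher (42.9% of all genes tested) and 5 lower (41.1%) in PC3 than with androgen. Against vehicle 5 were higher (42.6% of all genes tested) and 2 lower (40.8%). KDELR1, 1 of the 5 lower than with androgen (adjusted p = 0.0176), was at 0.0509 with the replicate number as a block. KDELR3 was at 26.2, 28.9 and 27.2 CPM in PC3, 2.85-fold higher than with androgen (adjusted p = 2.83e-06) and 9.76-fold higher than with vehicle (adjusted p = 1.05e-07). In the comparison with vehicle it met the filter only through its PC3 libraries. MCFD2, at between 294 and 365 CPM, was 1.95-fold and 3.76-fold higher (adjusted p = 1.93e-05 and 5.17e-07). ERGIC1, at 253, 276 and 250 CPM, was lower by 3.71-fold and 2.07-fold (adjusted p = 1.42e-07 and 2.73e-06). No PC3 library overlapped a LNCaP library for KDELR3, MCFD2 or ERGIC1. Of the 5 COPII genes, 4 were lower than with androgen (41.1% of all genes tested). Against vehicle 2 were higher (42.6%) and 2 lower (40.8%). SEC23A, 1 of the 2 higher than with vehicle (adjusted p = 0.025), was at 0.068 with the replicate number as a block. SEC24A was lower by 3.04-fold and 1.72-fold, and SEC23B by 2.49-fold and 1.57-fold. SEC24D, at 45.3, 42.0 and 73.7 CPM, was below androgen (log2 -0.91, adjusted p = 0.00316) and above vehicle (log2 0.59, adjusted p = 0.0294), where the call was lost without any one vehicle library (0.107 to 0.152).

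Of the 59 genes above 3 CPM in at least 3 of the 9 libraries, 19 ran from PC3 through vehicle to androgen with no overlap between neighbouring groups, where 15.6% of all 12843 such genes did. They included XBP1, CREB3L4, P4HB, EDEM3, SEC61B, SEC24A and ERGIC1. In 10 the order without overlap was vehicle, PC3, androgen (2.81% of all genes), namely ERN1, HSPA5, MANF, PDIA4, EDEM1, SSR3, SEC24D, KDELR1, KDELR2 and LMAN1. In 9 it was vehicle, androgen, PC3 (10.8%): ATF6, PPP1R15A, PPP1R15B, TRIB3, CREB3L1, DNAJB11, DERL1, KDELR3 and MCFD2. Of these, CREB3L1 was above 3 CPM in the PC3 libraries only. CHAC1 was the only gene of the 60 with the order androgen, vehicle, PC3. The share of all genes with that order was not computed, so this count has no background beside it. The rest overlapped between neighbouring groups.

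Relative to transcript length (mean CPM per kilobase of the Ensembl canonical transcript, GENCODE release 44), the sensors were far less abundant than the leading chaperones. With vehicle the highest level was that of CALR, at 603 CPM per kilobase, followed by HSP90B1 (421), P4HB (372) and ATF4 (349). HSPA5 was at 167, XBP1 at 140, ATF6 at 10.2, EIF2AK3 at 6.81 and ERN1 at 3.26 CPM per kilobase. Some folding genes were as low as the sensors, namely DNAJB9 (6.99), DNAJC10 (6.58) and ERO1B (4.63). The value of DNAJC10 rests on a canonical transcript of 20.1 kilobases. Before division by length its vehicle mean was 133 CPM, above that of ATF6 (76.5 CPM). With androgen ERN1 was at 11.2, level with ATF6 (10.9) and EIF2AK3 (10.3), whereas in PC3 the levels were 6.64, 20.9 and 7.51 CPM per kilobase. Differences between these 3 genes within a group were not tested.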

How the data were processed

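Poly(A)-enriched RNA of 9 cell line libraries was sequenced as single reads of 74 bases. The deposited values are raw counts per gene on hg38, made by the authors with STAR after removal of PCR duplicates by molecular identifier. The submitters' processing notes name cutadapt 4.1, STAR 2.7.7a and UMI-tools 1.1.2, whereas the supplementary methods name other versions of the first pair. All 253944 values equal the forward-strand counts in the files of the single libraries. Genes and groups were taken from the symbols and labels. The 60 genes, their roles and the 155 further pathway genes were chosen with earlier results of these data known.

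The 6 libraries of a comparison were fitted alone in edgeR 4.0.16 (R 4.3.3): genes with more than 3 CPM in at least 3 libraries, TMM factors, quasi-likelihood F test, Benjamini-Hochberg adjustment over all genes tested, a threshold of 0.05, and additionally a 2-fold change where stated. The study added a batch term, but its batches are not named in the sources used here. CPM were scaled with TMM factors over all 9 libraries. Values in every library are given for 7 sensors and direct effectors, for genes that rose or fell at least 2-fold with androgen, and for the 6 largest rises and falls that passed the test in each comparison; other genes are named by role. The replicate numbers paired the LNCaP libraries: deviations from the group means correlated at 0.19, 0.22 and 0.20 between androgen and vehicle libraries of the same number, and between -0.22 and 0.02 otherwise. Tests recovered all 200 genes changed by a log2 of 1.5 or 2 in simulated counts of the androgen comparison (11697 genes). In PC3 against vehicle, 99 of 100 genes changed by a log2 of 2 were recovered. The simulation gave all genes a common dispersion and held no smaller changes, so it does not cover the smaller differences reported here. Alternatives were DESeq2 1.42.0, other normalizations, filters, strand settings and designs, and leaving out each library.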

Additional observations from a re-analysis of the deposited data

How the results depend on the processing

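Of the 12 counts of genes that passed the test or rose or fell at least 2-fold, 11 stayed within 1.5 times under every alternative that was run. The exception was the count that fell with androgen, which was 1 (CHAC1) and became 0 when all 9 libraries shared 1 fit. The replicate block left 54 genes higher and 1 lower with androgen, and moved no count beyond 1.5 times. PC3 numbers paired with no LNCaP numbers (correlations from -0.09 to 0.03 for the same number), so the block there rests on a shared number only. With glmTreat, which tests against a 2-fold change itself, 12 genes rose by more than that with androgen. Single genes were followed over all alternatives only where the rule given above chose them for values in every library, not for every listed gene. Among those followed, a change of sign occurred only when 1 library was left out. None of the genes that changed sign passed the test in that comparison with all libraries. DDIT3 with androgen ranged from -0.20 to 0.18 (log2). SYVN1 in PC3 against androgen ranged from -0.0809 to 0.27 and EIF2AK3 in PC3 against vehicle from -0.00766 to 0.33. The cause was not tested. Without 1 library the filter also drops genes expressed in the remaining pair alone. Counts of strand-blind reads left DERL3 under the filter and lowered PDIA6 and EIF2AK3 to 0.614 and 0.773 of their forward-strand reads. Depth limits CREB3L1, DERL3 in PC3 and EDEM2, at 0 to 3 reads in their lowest libraries for the first pair.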
